A study of Mus musculus with 3 samples.

Results

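Haptoglobin (Hp) and 7 further genes of acute-phase proteins, Orm1, Orm2, Saa3, Lcn2, C3, Cp and Serpina3n, were followed on 3 Affymetrix mouse genome arrays. A probe set, a group of short probes read as 1 value, was taken as a member where the platform annotation gave 1 of these symbols and no other. In this way 7 of the 8 genes were matched, by 14 of the 45101 probe sets, while C3 was matched to none and was not analysed here. Hp and Orm2 had been chosen by their readout, the lower Hp signal and the higher Orm2 signal of siCont cells with BMP-2 against vehicle. For both genes that contrast is a description, and every other contrast below reuses 1 of those 2 arrays.

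The cells were PDL-L2, an immortalised fibroblastic line from mouse periodontal ligament, the tissue that joins the tooth root to the bone. Cells received a SMARTpool of siRNAs against endoglin (siENG) and then recombinant human BMP-2, or a non-target pool (siCont) and then BMP-2, or siCont and then vehicle. BMP-2 was used at 250 ng/ml for 12 h, starting 48 h after transfection, in a differentiation medium with ascorbic acid and beta-glycerophosphate. Each condition was read on 1 array, siENG cells with vehicle are not analysed here, and no test or p-value can be given. Signals were set against each other in 3 ways. The BMP-2 comparison is that of siCont cells given BMP-2 over siCont cells given vehicle, the knockdown comparison that of siENG over siCont cells where both had BMP-2, and the combined comparison that of siENG cells given BMP-2 over siCont cells given vehicle. Each value below rests on 1 array, and fewer cells that express a gene cannot be told apart from less RNA per cell.

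The acute-phase response is a change in plasma proteins during infection and injury. Liver cells make most of these proteins when IL-6, IL-1 and TNF act on them through STAT3, NF-κB and C/EBP factors, and fat cells, epithelia and fibroblasts can make several of them locally. Haptoglobin binds free haemoglobin, the orosomucoids Orm1 and Orm2 carry small lipophilic molecules, Lcn2 (lipocalin-2) withholds iron-loaded siderophores from bacteria, and Cp (ceruloplasmin) carries copper and oxidises iron. Saa3 is a serum amyloid A made mainly outside the mouse liver, Serpina3n inhibits serine proteases, and C3 is the central complement protein.

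A signal here is the linear intensity that the authors deposited. Control probe sets for Bacillus genes gave signals of up to 13.1, and a signal at or under this value was taken as not above background. The siENG array was brighter as a whole. The median log2 ratio was 0.01 in the BMP-2 comparison, 0.21 in the knockdown comparison and 0.22 in the combined comparison, and log2 ratios given as relative have it subtracted. Precision is described by the robust SD, the spread of log2 ratios over all probe sets of similar signal. It is taken across probe sets, includes their true differences, and does not measure variation between cultures. The brighter probe set of endoglin itself (Eng) read 108 with siENG and BMP-2, 299 with siCont and BMP-2 and 286 with siCont and vehicle. Of 14 matched fibroblast and periodontal ligament markers, 11 were above background on 1 or more arrays, with Col1a2 the brightest, while Thy1, Aspn and Tnmd were not above background on any. Of 9 matched hepatocyte markers, 5 were not above background on any array, among them Fgb and albumin (Alb), the highest signal of which was 4.6.

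Hp had a signal of 46.5 with siENG and BMP-2, 38.2 with siCont and BMP-2 and 162 with siCont and vehicle. Both BMP-2 arrays were thus far below the vehicle array and near each other, and all 3 signals were above background. In the BMP-2 comparison, by which Hp was picked, the log2 ratio was -2.08, with a robust SD of 0.29 among probe sets of similar signal. In the combined comparison it was -1.80 (-2.02 relative, robust SD 0.42). In the knockdown comparison it was 0.28 (0.07 relative), within the robust SD of 0.49. The lower Hp signal with BMP-2 was therefore also read on the array of the cells with endoglin knockdown, which shares the vehicle array with the BMP-2 comparison. Summed over the 9 matched hepatocyte markers, the signal was 76.0 with siENG and BMP-2, 88.6 with siCont and BMP-2 and 114 with vehicle, and its part in the Hp result was not tested.

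Of the 6 members with enough signal for a ratio, Lcn2 was the only one that was lower by more than the robust SD in both the BMP-2 and the knockdown comparison. Its signal was 283 with siENG and BMP-2, 430 with siCont and BMP-2 and 617 with siCont and vehicle. The log2 ratio was -0.52 in the BMP-2 comparison, with a robust SD of 0.15, and -0.61 (-0.82 relative) in the knockdown comparison, with a robust SD of 0.30. Neither step reached a ratio of 0.5, but the combined comparison did, at 0.458 (log2 ratio -1.13, -1.35 relative). Lcn2 is also a granule protein of neutrophils. Of 10 neutrophil granule and antimicrobial genes listed, Lcn2 among them, 8 were above background on 1 or more arrays. The others, Camp and S100a9, were not above background on any array. The summed signal of the 10 matched leukocyte markers, 7 of them above background on 1 or more arrays and Ptprc on none, ran the other way, at 509 with siENG and BMP-2, 425 with siCont and BMP-2 and 336 with vehicle, of which the alarmin subunit S100a8 made up 221, 199 and 104. Epithelia also express Lcn2, and the summed signal of the 6 matched epithelial markers, each above background on 1 or more arrays, was 61.7 with siENG and BMP-2, 111 with siCont and BMP-2 and 110 with vehicle. Its members did not run together. Krt18 had signals of 7.6 with siENG and BMP-2, 26.5 with siCont and BMP-2 and 8.4 with vehicle. Krt14 had 11.8, 7.3 and 25.2 in the same order. Of these signals only the 26.5 of Krt18 and the 25.2 of Krt14 were above background. The dimmer Krt14 probe sets were not above background on any array. The part of these markers in the Lcn2 result was not tested.

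**Figure D1:**
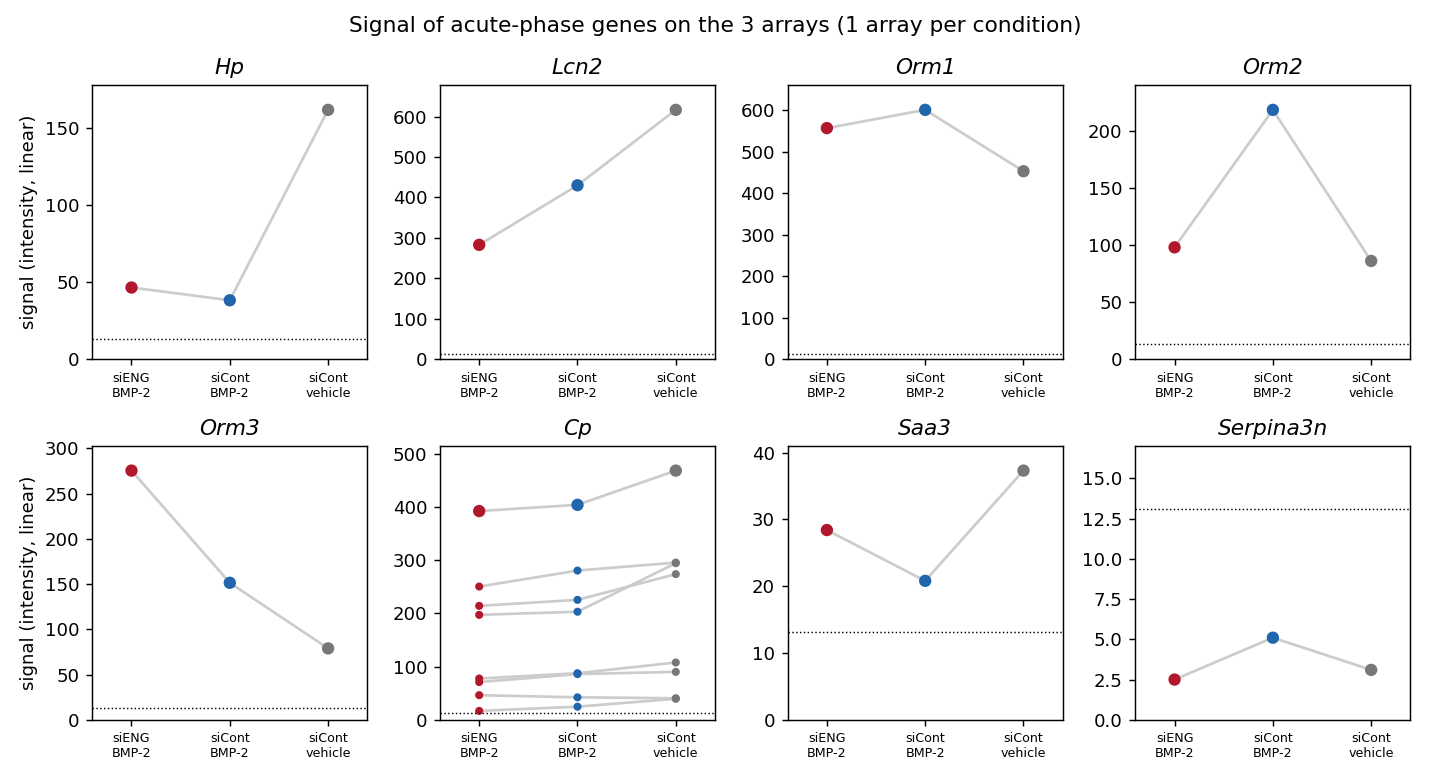
Signal (linear intensity, from 0) of 7 acute-phase genes and Orm3 on the siENG BMP-2, siCont BMP-2 and siCont vehicle arrays, with 1 line per probe set, larger points for the probe set that represents the gene and a dotted line at the background of 13.1. Hp is high on the vehicle array alone, Orm2 on the siCont BMP-2 array alone, Lcn2 and Orm3 run in opposite directions, and Serpina3n stays below the dotted line.

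The orosomucoid genes lie close together on mouse chromosome 4. In the RefSeq gene order Orm3 and Orm2 are adjacent, and Gm11212 lies between Orm1 and Orm3. Their transcripts are close in sequence, the probe sequences were not used here, and how far a probe set also reads a neighbour was not tested. Orm3 is not among the 8 genes but is named with them for its place in the cluster. For Orm2 and Orm3, RefSeq (GRCm38.p6) gives the stretch from 250 bases before to 50 bases after the start. Both are shown because these neighbours, with closely related promoters, differed in their signal on the siENG array. Orm2 is at chr4:63362199-63362498 on the plus strand and Orm3 at chr4:63355908-63356207 on the plus strand. Capitals mark the match to the C/EBP pattern TTNNGNAAT on either strand.
Orm2: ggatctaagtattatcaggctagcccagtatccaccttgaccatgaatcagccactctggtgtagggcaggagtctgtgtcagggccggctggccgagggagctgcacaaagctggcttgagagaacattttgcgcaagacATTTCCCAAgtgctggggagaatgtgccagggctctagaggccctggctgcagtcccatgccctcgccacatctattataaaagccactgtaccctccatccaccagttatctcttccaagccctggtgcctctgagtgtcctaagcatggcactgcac
Orm3: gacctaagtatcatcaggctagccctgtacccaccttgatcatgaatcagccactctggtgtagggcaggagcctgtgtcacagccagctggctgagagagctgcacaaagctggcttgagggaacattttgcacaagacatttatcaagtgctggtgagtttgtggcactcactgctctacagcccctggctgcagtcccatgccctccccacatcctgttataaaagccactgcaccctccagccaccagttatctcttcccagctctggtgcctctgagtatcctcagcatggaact
In a global alignment 86.2% of 305 columns were identical. The match in Orm2 ran from 109 to 101 bases before the start, and the aligned stretch of Orm3, atttatcaa, did not match and differed from it by C5A and C6T, with positions counted from 1 at the 5′ end of the stretch as printed and the Orm2 base first. Only full matches were searched and marked. Just before these stretches, Orm2 has ttgcgcaa and Orm3 has ttgcacaa. Each lacks only the last base of the pattern, on both strands in Orm2 and on the minus strand alone in Orm3. The difference between the windows thus depends on the pattern chosen. Of all 32851 promoter windows of this length in the table, 11.5% held the pattern, so a match is a description of the letters and not a binding site. The other patterns searched on both strands, TTCNNNGAA for STAT, a pattern for NF-κB and GGCGCC for BMP-activated Smads, were in neither window and in 8.3%, 1.63% and 11.9% of all windows. No windows of Hp or Orm1 were in the table, and those of Lcn2, Saa3 and Cp held none of the 4 patterns, while that of C3 held the C/EBP pattern and that of Serpina3n both the C/EBP and the NF-κB pattern.

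Orm2 had a signal of 97.8 with siENG and BMP-2, 218 with siCont and BMP-2 and 85.9 with siCont and vehicle. The siCont BMP-2 array stood above the other arrays, which differed little. The log2 ratio in the BMP-2 comparison, by which the gene was picked, was 1.34 (robust SD 0.26). That in the knockdown comparison was -1.16 (-1.37 relative, robust SD 0.39), and a high reading on the shared siCont BMP-2 array would raise the first and lower the second. In the combined comparison the log2 ratio was 0.19 as deposited and ran from -0.05 to 0.19 over the scalings tried, so the order of these arrays is not settled. The printed Orm2 window is the one with a full match to the C/EBP pattern.

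Orm3 took another course. Its signal was 275 with siENG and BMP-2, 151 with siCont and BMP-2 and 78.9 with siCont and vehicle, so it was highest where Orm2 was again near its vehicle signal. The log2 ratio was 0.94 in the BMP-2 comparison (robust SD 0.26), 0.86 (0.65 relative, robust SD 0.34) in the knockdown comparison and 1.80 (1.58 relative) in the combined comparison. In the knockdown comparison the log2 ratio therefore had opposite signs in Orm2 and Orm3, as deposited and under the scalings tried.

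Orm1 differed less between arrays than Orm2 and Orm3. It had a signal of 557 with siENG and BMP-2, 601 with siCont and BMP-2 and 453 with siCont and vehicle. The log2 ratio in the BMP-2 comparison was 0.41, where the robust SD was 0.15, and that in the knockdown comparison was -0.11 as deposited, within its robust SD of 0.27, but -0.32 relative, past it. In the combined comparison it was 0.30 as deposited and 0.08 relative. Orm1 and Orm3 thus had a higher signal with BMP-2 than with vehicle in siCont cells, as did Orm2, which was picked for it. In siENG cells 1 of the 3 orosomucoids, Orm3, passed its siCont BMP-2 signal. Fat cells also express orosomucoids and haptoglobin. Of 6 matched adipocyte markers, 4 were not above background on any array, among them Adipoq and Lep, and the fatty acid carrier Fabp4, which is not specific to fat cells, had signals of 252 with siENG and BMP-2, 397 with siCont and BMP-2 and 261 with vehicle. The other adipocyte marker above background, Retn, had signals of 24.5 with siENG and BMP-2, 4.8 with siCont and BMP-2 and 12.3 with vehicle. Retn was thus highest with siENG, where alone it was above background, unlike Fabp4 and Orm2, and the part of these markers in the Orm2 result was not tested.

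Cp was read by 8 probe sets, which gives a check within each array but not between cultures. The brightest had a signal of 392 with siENG and BMP-2, 404 with siCont and BMP-2 and 468 with siCont and vehicle. With BMP-2, 7 of 8 Cp probe sets were lower than with vehicle in siCont cells, with a median log2 ratio of -0.25 and a range from -0.68 to 0.06. Between siENG and siCont cells with BMP-2, 7 of 8 were again lower, with a median log2 ratio of -0.12, and relative to the brighter siENG array 8 of 8 were (median -0.33). In the combined comparison the median was -0.35 (-0.57 relative). The exception as deposited was a probe set with signals of 46.2 with siENG and BMP-2, 42.2 with siCont and BMP-2 and 40.4 with vehicle. The lowest ratio was that of the dimmest probe set, with signals of 16.7 with siENG and BMP-2, 24.6 with siCont and BMP-2 and 39.5 with vehicle, the only Cp probe set at a ratio of 0.5 or less in any comparison. The probe sets share the same 3 RNA samples, so they are not replicates.

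Saa3 was dim. It had a signal of 28.4 with siENG and BMP-2, 20.8 with siCont and BMP-2 and 37.3 with siCont and vehicle. The log2 ratio of -0.84 in the BMP-2 comparison exceeded the robust SD of 0.51, while those of 0.45 in the knockdown comparison (robust SD 0.56) and -0.39 in the combined comparison (robust SD 0.48) did not. The relative value in the combined comparison, -0.61, did. Serpina3n had signals of 2.5 with siENG and BMP-2, 5.1 with siCont and BMP-2 and 3.1 with vehicle. None was above background, so no ratio of Serpina3n is given.

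A gene was kept in a comparison where the higher of its signals reached 23, the median of all probe sets, which left 6 of the 8 genes in each comparison. Of the 6, Orm2 had a ratio of 2 or more and Hp a ratio of 0.5 or less in the BMP-2 comparison. These are the genes picked in that contrast, where 1.8% of the 10810 kept genes reached the upper limit and 1.57% the lower. In the knockdown comparison, Orm2 was at 0.5 or less and 0 members at 2 or more, against 1.66% and 4.04% of 10854 genes kept. In the combined comparison, Hp and Lcn2 were at 0.5 or less and 0 members at 2 or more, against 1.73% and 3.99% of 10847 genes kept. The median log2 ratio of the 6 was -0.37 in the BMP-2 comparison against 0.01 over all genes kept, -0.08 against 0.24 in the knockdown comparison, and -0.32 against 0.25 in the combined comparison. With the median ratio subtracted the same genes were at 0.5 or less and at 2 or more, against 1.59% and 1.78% of genes kept in the BMP-2 comparison, 2.7% and 2.32% in the knockdown comparison and 2.85% and 2.25% in the combined comparison. In each comparison the members lay on both sides of 0 as deposited.

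**Figure D2:**
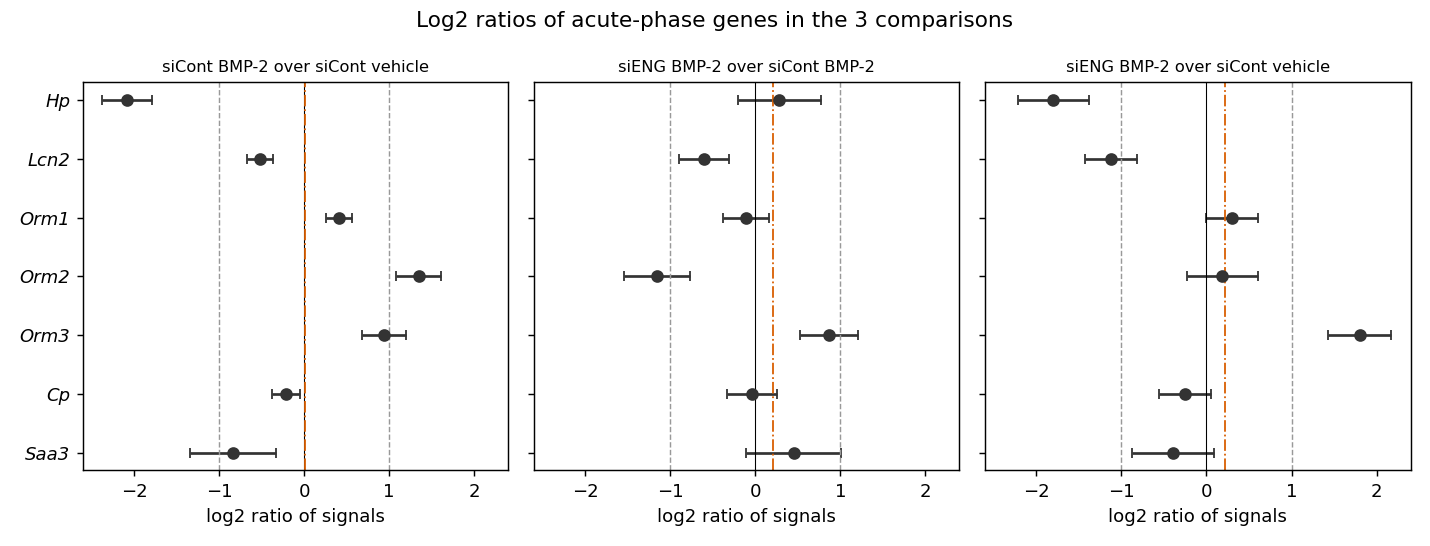
Log2 ratio of signals (horizontal axis) for the 6 members kept and Orm3 in the 3 comparisons, where bars show the robust SD of log2 ratios among probe sets of similar signal and not a replicate error. Dashed lines mark ratios of 0.5 and 2 and the dash-dotted line the median ratio of the arrays, and in the middle panel Orm2 at -1.16 and Orm3 at 0.86 lie on opposite sides of it.

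Counts and medians of the lists below are to be read against the shares and medians over all genes kept, given above for each comparison. Of 39 other acute-phase proteins listed, 32 were matched, and 16 of these were not above background on any array. Among these were C-reactive protein (Crp), serum amyloids Saa1, Saa2 and Saa4 and the fibrinogen chain Fgb. In the BMP-2 comparison, 0 of the 8 kept had a ratio of 2 or more or of 0.5 or less. The median log2 ratio was 0.25. A dimmer probe set of Ptx3 had signals of 37.3 with siENG and BMP-2, 16.4 with siCont and BMP-2 and 37.0 with vehicle. Its log2 ratio was -1.17 in the BMP-2 comparison and 1.19 (0.98 relative) in the knockdown comparison. In the knockdown comparison, 1 of 9 kept, Lbp, was at 2 or more and 0 at 0.5 or less (median log2 ratio 0.07), and in the combined comparison the 1 of 8 at 2 or more was Orm3 (median log2 ratio 0.25). Lbp, the lipopolysaccharide-binding protein, had signals of 96.2 with siENG and BMP-2, 41.5 with siCont and BMP-2 and 63.9 with vehicle, a log2 ratio of 1.21 in the knockdown comparison that was just past 1 as a relative value. Its other probe set had signals of 14.4, 0.8 and 0.9 in that order, of which only the first was above background. The metallothioneins Mt1 and Mt2, which bind zinc and copper, were the brightest of the list. The probe sets that represent them differed little, with log2 ratios of 0.18 and 0.16 in the BMP-2 comparison. A dimmer Mt1 probe set had signals of 219 with siENG and BMP-2, 124 with siCont and BMP-2 and 106 with vehicle. Its log2 ratio was 0.82 (0.61 relative) in the knockdown comparison and 1.05 (0.83 relative) in the combined comparison.

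Of 30 genes that carry the signals of IL-6, IL-1 and TNF to acute-phase genes, 28 were matched. In the BMP-2 comparison 0 of 21 kept were at a ratio of 2 or more or of 0.5 or less, and the median was -0.01 in log2. In the knockdown comparison, 2 of 22 kept were at 2 or more and 1 at 0.5 or less, with a median of 0.01. The 2 were the transcription factors Cebpd and Cebpa. Cebpd had signals of 283 with siENG and BMP-2, 112 with siCont and BMP-2 and 130 with vehicle, and a log2 ratio of 1.33 (1.12 relative) in the knockdown comparison, while its dimmer probe set had signals of 20.1, 24.2 and 19.5. Cebpa was dim, with signals of 30.5, 14.2 and 17.2 in the same order, and its relative log2 ratio of 0.89 did not reach 1. The gene at 0.5 or less was Il6 itself, with signals of 56.7 with siENG and BMP-2, 197 with siCont and BMP-2 and 199 with vehicle (log2 ratio -1.80 for siENG over siCont with BMP-2). Il6 RNA was thus near its vehicle level with BMP-2 in siCont cells, on 1 array each. The part of Il6 in the Hp and Orm2 results was not tested. Cebpd in the combined comparison was at 2 or more (log2 ratio 1.12, 0.90 relative) and Il6 at 0.5 or less, with a median of 0.21 over 22 kept. Relative to the median ratio, Osmr, the oncostatin M receptor, with signals of 223 with siENG and BMP-2, 421 with siCont and BMP-2 and 443 with vehicle, joined Il6 at 0.5 or less in both comparisons with siENG. Cebpb and Nfkbia were the brightest of the list. Log2 ratios of the probe sets that represent them lay between 0.03 and 0.22 in the 3 comparisons as deposited. Those in the comparisons with siENG changed sign under other scalings. For the dimmer probe sets of both genes, log2 ratios lay between -0.12 and 0.36 as deposited.

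**Figure D3:**
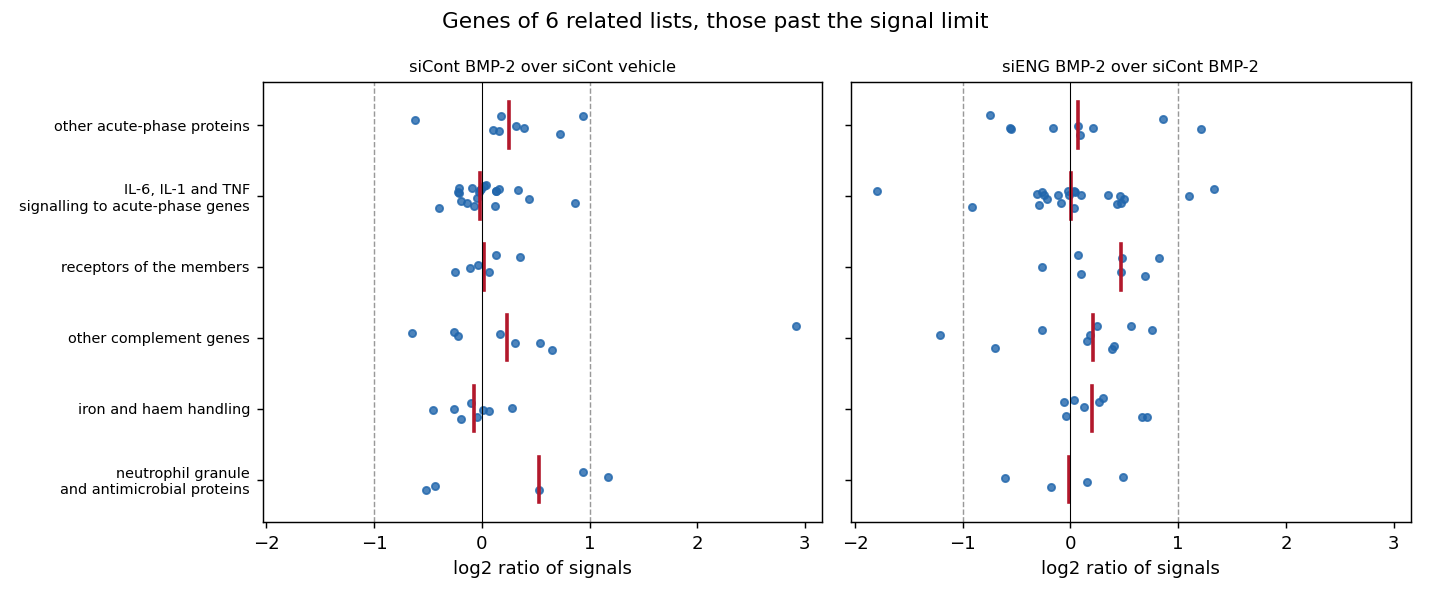
Log2 ratio of signals (horizontal axis) in the BMP-2 comparison and the knockdown comparison, with 1 point per kept gene in each of 6 lists, red bars at the list medians and dashed lines at ratios of 0.5 and 2. Most points lie between the dashed lines, and Il6 at -1.80 and Cebpd at 1.33 are the outermost of their list in the panel of the knockdown comparison.

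Of 13 receptors that bind the member proteins or their complexes, 13 were matched and 4 were not above background on any array, among them Cd163, the scavenger receptor for haptoglobin with haemoglobin on macrophages. Read by the probe set that represents each gene, no kept receptor was at a ratio of 2 or more or of 0.5 or less. This held in all 3 comparisons, over 6, 7 and 7 genes. Median log2 ratios were 0.02 in the BMP-2 comparison, 0.47 (0.26 relative) in the knockdown comparison and 0.45 (0.23 relative) in the combined comparison. Over all genes kept, the medians as deposited were 0.24 in the knockdown comparison and 0.25 in the combined comparison. The brightest were Lrp1, a scavenger receptor that takes up haem complexes, with signals of 1388 with siENG and BMP-2, 1293 with siCont and BMP-2 and 1180 with vehicle, and Scarb1, a lipoprotein receptor that also binds serum amyloid A, with 568, 541 and 584. A dimmer probe set of Lrp2 had signals of 55.5 with siENG and BMP-2, 21.5 with siCont and BMP-2 and 28.7 with vehicle. Its log2 ratio in the knockdown comparison was 1.37 (1.16 relative).

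Of 22 other complement genes, 18 were matched, and of these 7 were not above background on any array. In the BMP-2 comparison, 1 of 8 kept was at a ratio of 2 or more and 0 at 0.5 or less, and the median was 0.24 in log2. This was C2, with signals of 17.7 with siENG and BMP-2, 40.9 with siCont and BMP-2 and 5.4 with vehicle, so that it was at least 3.12-fold higher with siCont and BMP-2 than with vehicle. Its other probe sets were not above background on any array. In the knockdown comparison, C2 was the 1 gene of 10 kept at 0.5 or less and 0 were at 2 or more, with a median of 0.21. C6 and clusterin (Clu) were at 2 or more among 9 kept in the combined comparison, with a median of 0.04. C6 was at least 1.85-fold higher, and Clu had a log2 ratio of 1.06 (0.84 relative), while those of its 3 dimmer probe sets lay between -0.37 and 0.54. The brightest of the list were Masp1, a protease gene that also encodes an inhibitor of the lectin pathway, and Cd59a, which blocks the membrane attack complex. The brightest Masp1 probe set had signals of 981 with siENG and BMP-2, 1599 with siCont and BMP-2 and 1101 with vehicle. It was highest on the same array as Orm2, with smaller log2 ratios of 0.54 in the BMP-2 comparison and -0.71 in the knockdown comparison. Log2 ratios of its dimmer probe sets lay between -0.24 and 1.25 in the BMP-2 comparison and between -0.71 and -0.46 in the knockdown comparison. Cd59a had 363, 326 and 510 in the same order.

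The genes most like Hp and Orm2 were sought among 7187 genes with a signal of 152 or more on any array, by the distance over their log2 ratios in the BMP-2 and the knockdown comparison. With 3 arrays this measures a shape over 3 values only, and the genes were found on the same arrays. Nearest to Hp were Vegfd, a growth factor of lymphatic vessels (distance 0.90), Mgat3 (1.02), the aggrecanase Adamts5 (1.09), Gas1 (1.11) and Ogn (1.16). Vegfd had signals of 207 with siENG and BMP-2, 183 with siCont and BMP-2 and 417 with vehicle, and no gene searched came within a distance of 0.90 of Hp. Nearest to Orm2 were Dpysl3 (0.30), Id4 (0.31), C730049O14Rik (0.37), Irf5 (0.37) and Tmem268 (0.41). Id4, a helix-loop-helix protein without a DNA-binding domain of its own, had signals of 127 with siENG and BMP-2, 233 with siCont and BMP-2 and 83.6 with vehicle.

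**Figure D4:**
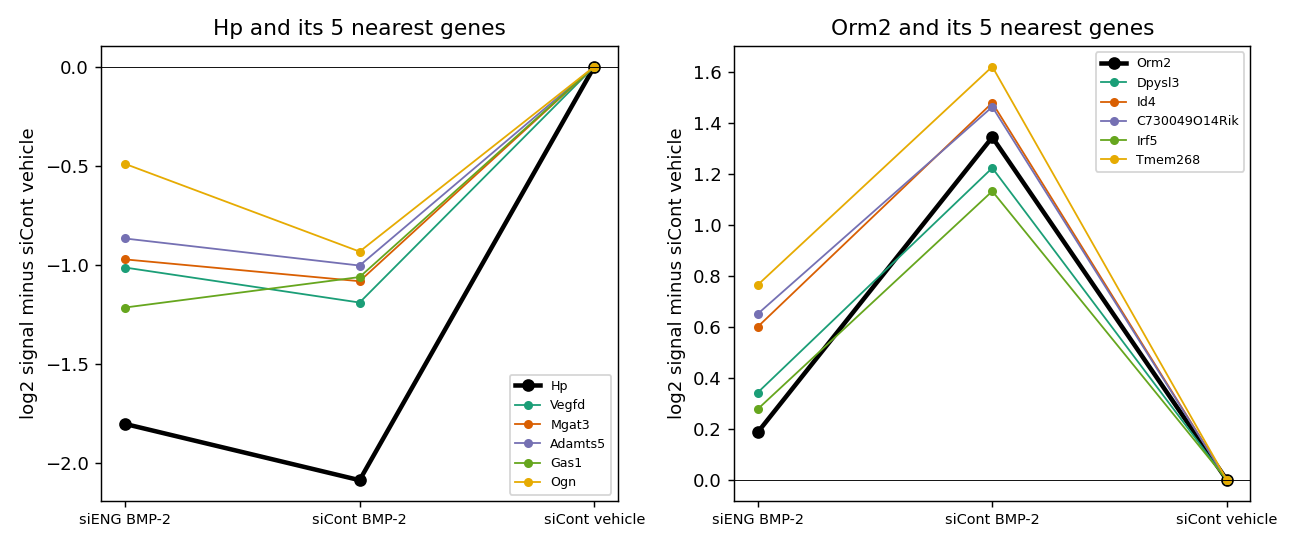
Log2 signal minus that on the siCont vehicle array (vertical axis) on the siENG BMP-2, siCont BMP-2 and siCont vehicle arrays for Hp and Orm2 (black) and the 5 genes nearest to each (colours). Hp lies at -2.08 on the siCont BMP-2 array, below all 5 of its nearest genes, while Orm2 at 1.34 lies among its own.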

How the data were processed

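Total RNA of the 3 conditions was hybridised to 1 Affymetrix array each. Each array's table, as deposited, holds a linear intensity, the signal, for every probe set. The submitters' processing notes name GCOS 1.4. How signals were computed and scaled is not given in the sources used. A total of 4 signals listed at 0 were replaced by 0.1. Of 45101 probe sets, 64 controls were left out. The annotation listed several symbols for 932 probe sets and did not list 9211, and symbols were updated by gene identifier with RefSeq (GRCm38.p6), which gave 18193 genes. A gene was represented by its probe set of highest mean log2 signal. Log2 ratios were taken from the signals as deposited, so a difference in array brightness enters each of them. The robust SD was 1.4826 times the median absolute deviation in 20 bins of mean log2 signal over all non-control probe sets. It ranged from 0.11 to 2.82. The number of arrays limits the precision, and depth does not apply to arrays.

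Members and lists were chosen with earlier results of these data known. Named were all members, each list's kept genes at a ratio of 2 or more or 0.5 or less, its 2 genes of highest signal, and the 5 genes nearest to Hp and to Orm2; other genes are named as examples chosen after their values were seen. A fold against a signal at or under 13.1 was set against that value. The ratios were tested on simulated data. As alternatives, the signal limit was dropped or raised to the 75th percentile, low signals were set to a floor, arrays were scaled by quantiles, by the median ratio, by a 2% trimmed mean or by lowess (fraction 0.3), and genes were read by the mean of their probe sets or by any of them. Python 3.11.15, numpy 2.4.6, pandas 2.3.3, scipy 1.17.1, statsmodels 0.14.6, biopython 1.88 and matplotlib 3.10.9 were used.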

Additional observations from a re-analysis of the deposited data

How the results depend on the processing

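With 1 array per condition, leaving out a replicate was not possible, and no paired analysis was possible because the result comes from no test. The counts of members past either ratio limit (2 and 0.5) in the 3 comparisons were computed under 9 alternatives. They stayed within 1.5 times the main count in 53 of 54 cases. The exception was 0.5 or less in the knockdown comparison with no limit on the signal, at 2 members, since Serpina3n, not above background on any array, is then counted beside Orm2. At that margin of 1.5 times, 3 members in place of 2 were at 0.5 or less in the combined comparison where any probe set of a gene was counted, with Cp added by its dimmest probe set. Under other scalings, floors and probe sets, the 126 log2 ratios of single members differed from the main value by less than the robust SD. Part of this was fixed in advance. Every matched member but Cp has 1 probe set, so the mean over probe sets could not differ, and the floor leaves signals above it unchanged. The median shift of the siENG array (0.21 and 0.22 in log2) is smaller than the robust SD of each member there. Serpina3n, not above background, is included, with robust SDs from 2.42 to 2.78. The sign changed for Orm2 in the combined comparison, to as low as -0.05. The number of arrays limits each value, and signal over background limits Saa3, Cebpa, C2 and C6.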

Other observations

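Genes that handle iron and haem were read as well. Of 14 listed, 12 were matched. By the probe set that represents each gene, 0 of 8 kept had a ratio of 2 or more or of 0.5 or less. This held in all 3 comparisons. A dimmer probe set of Slc48a1 had signals of 474 with siENG and BMP-2, 237 with siCont and BMP-2 and 308 with vehicle. Its ratio in the knockdown comparison was just past 2 as deposited, while its relative log2 ratio was 0.79. Haem oxygenase 1 (Hmox1), which breaks down haem, had signals of 1069 with siENG and BMP-2, 676 with siCont and BMP-2 and 672 with vehicle. Its log2 ratio in the knockdown comparison was 0.66 (0.45 relative). Ferritin heavy chain (Fth1), which stores iron, had log2 ratios between -0.10 and 0.13 in the 3 comparisons, with a change of sign under other scalings for both comparisons with siENG.

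Of 10 neutrophil granule and antimicrobial genes, a list that holds Lcn2, 8 were above background on 1 or more arrays. The alarmin subunit S100a8 had signals of 221 with siENG and BMP-2, 199 with siCont and BMP-2 and 104 with vehicle, a log2 ratio of 0.94 in the BMP-2 comparison, where that of Lcn2 was -0.52. Its partner S100a9 was not above background on any array. Lysozyme 2 (Lyz2) had signals of 36.3 with siENG and BMP-2, 25.9 with siCont and BMP-2 and 11.5 with vehicle, and was at least 1.98-fold higher with siCont and BMP-2 than with vehicle. Lyz2 and S100a8 are also in the leukocyte marker list, in which Ptprc and Itgam were not above background on any array.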
